A study of Mus musculus with 2 samples.

Results

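RNA-seq of BM LSKs (Lin-Sca1+c-Kit+ cells) from Scl/tTA-BA mice was used to describe 10 neutrophil granule genes, of 34745 genes in the deposited tables. They are 5 primary granule genes (Mpo, Elane, Prtn3, Ctsg and Ms4a3) and 5 genes of later granules (Fcnb, Ltf, Lcn2, Camp and Ngp). The members were found by gene name, and all 10 were present. They were chosen by their function with the reads and FPKM of both libraries already known, so their change between the libraries is a description and was not tested. All mice carried both transgenes, Scl/tTA and the BCR/ABL1 (BA) transgene under a tetracycline-responsive promoter, on a C57BL/6 background. The Scl-driven transactivator acts in hematopoietic stem and progenitor cells, and doxycycline in the drinking water keeps BA off. The week-0 library came from mice still on doxycycline and the week-3 library from mice 3 weeks after its withdrawal. LSKs of 3 mice were combined for each library, which leaves no replicate and no measure of how mice differ. The age and sex of the mice are not given in the sources used here.

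Reads on genes came to 6356164 before doxycycline withdrawal and 3886695 after it. An upper limit of 3 reads, which a count of 0 allows, was 0.472 and 0.772 RPM (reads scaled to a common library total). The sorting genes were present at both times, Kit with 1391 and 580 reads and Ly6a (Sca1) with 434 and 199 reads. Scaled by total reads, their log2 ratios of week-3 over week-0 were -0.55 and -0.42. Genes of mature lineages, which a lineage-negative sort should deplete, were uneven. Itgam (CD11b) had 30 reads in each library, Ly6g had 5, and Cd3e had 5 and 0. Scaled by total reads, Itgam and Ly6g were each at a log2 ratio of 0.71, with intervals that reached below 0. Hbb-bt had 2193 and 131 reads, Hba-a1 had 2036 and 32, Prg2 had 1552 and 505, and Cd79b had 314 and 216. In the same order, their scaled log2 ratios were -3.36, -5.28, -0.91 and 0.17. All ratios below are FPKM at week-3 over FPKM at week-0, scaled by total reads. TMM scaling lowers every log2 ratio by 0.11, and median-of-ratios scaling by 0.09. Intervals are 95% exact Clopper-Pearson intervals of the 2 read counts and cover counting error only. They treat reads as independent, which amplified reads are not, so they may be too narrow even for that error.

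Neutrophils store their weapons in granules that are filled in sequence as the cell matures. Primary (azurophil) granules form first, at the promyelocyte stage, and hold myeloperoxidase and the neutrophil serine proteases. Secondary and tertiary granules form later and hold lactoferrin, lipocalin 2 and the cathelicidins, so the order of these genes is commonly read as a clock of granulocyte maturation. PU.1, C/EBP, MYB and RUNX factors are known regulators of granule genes, and C/EBP epsilon is required for the later granules.

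Promoters of the members were taken from RefSeq on GRCm38.p6, as the 250 bases before and 50 bases after the start site, and all 10 were matched. Those of Elane, Prtn3, Ltf and Ngp are shown because they carry the arrangements described next, with matches to the searched letters in capitals, all 5′ to 3′ on the strand of the gene. Elane (chr10:79886062-79886361, plus strand) and Prtn3 (chr10:79879417-79879716, plus strand) are neighbours that encode serine proteases of the primary granule. Ltf (chr9:111019042-111019341, plus strand) and Ngp (chr9:110419558-110419857, plus strand) encode contents of later granules.
Elane: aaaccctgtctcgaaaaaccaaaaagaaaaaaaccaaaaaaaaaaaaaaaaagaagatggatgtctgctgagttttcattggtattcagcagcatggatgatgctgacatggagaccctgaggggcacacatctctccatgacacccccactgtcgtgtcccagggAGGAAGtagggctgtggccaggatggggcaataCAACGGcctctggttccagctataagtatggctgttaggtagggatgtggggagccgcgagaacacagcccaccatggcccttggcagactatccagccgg
Prtn3: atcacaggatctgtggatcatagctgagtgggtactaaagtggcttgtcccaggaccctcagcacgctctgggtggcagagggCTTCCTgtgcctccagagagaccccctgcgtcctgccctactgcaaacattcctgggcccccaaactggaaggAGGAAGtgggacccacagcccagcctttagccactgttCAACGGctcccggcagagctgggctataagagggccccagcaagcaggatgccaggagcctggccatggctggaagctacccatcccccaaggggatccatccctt
Ltf: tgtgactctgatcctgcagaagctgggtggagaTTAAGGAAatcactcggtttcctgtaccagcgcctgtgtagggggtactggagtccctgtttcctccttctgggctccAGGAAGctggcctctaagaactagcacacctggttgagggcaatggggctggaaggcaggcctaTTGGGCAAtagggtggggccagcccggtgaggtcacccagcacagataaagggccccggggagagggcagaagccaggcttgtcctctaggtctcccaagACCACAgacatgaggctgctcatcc
Ngp: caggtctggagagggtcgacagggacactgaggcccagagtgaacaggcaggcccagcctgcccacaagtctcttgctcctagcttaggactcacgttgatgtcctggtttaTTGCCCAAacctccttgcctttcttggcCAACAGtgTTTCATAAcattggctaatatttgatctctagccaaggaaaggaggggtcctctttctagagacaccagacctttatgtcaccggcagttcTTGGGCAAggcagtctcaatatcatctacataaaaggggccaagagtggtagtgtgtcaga
Both strands were searched, with letters chosen with the promoters in view, and matches of different motifs may overlap. For PU.1 and other ETS factors the letters were AGGAAG. For MYB they were CAACNG, for C/EBP they were TTNNGNAA, for RUNX they were TGTGGT, and for the TATA box they were TATAAA. In Elane, AGGAAG began at base -84 from the start site and a CAACNG match at -51. In Prtn3 the same pair stood at -94 and -56, and another AGGAAG was found on the opposite strand at -167. AGGAAG was present in 9 of the 10 promoters, all but Ngp, and in 35.4% of 32817 promoters of this length. CAACNG was found in 3 primary and 3 later promoters, against 35.02% of all. TTNNGNAA was found in 4 later promoters (all but Camp) and in 1 primary promoter, that of Ms4a3, against 40.7% of all promoters. Ltf had it at -217 and -75, and Ngp at -138, -102 and -11. The RUNX letters were found in Ctsg and Ltf (16.8% of all promoters) and those of the TATA box in Ctsg alone among the members (13.6%), on the opposite strand. In Lcn2, matches for ETS factors, MYB and C/EBP overlapped, at -223, -219 and -216. These are matches of letters and not binding sites.

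All 10 granule genes had a higher FPKM at week-3, by at least 2-fold. Of all 13689 genes with at least 10 reads over both libraries, 11.9% were at least 2-fold higher at week-3 and 17.9% at least 2-fold lower, and the median log2 ratio was 0.05. The median of the 10 members was 2.49, and their log2 ratios lay between 1.13 and 3.83. In 9 members the whole interval was above 2-fold, and Fcnb was the exception. Because the members were chosen with these values known, the count is no evidence about granule genes as a class. In whole LSK RNA, more cells of a type and more RNA per cell cannot be told apart.

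**Figure D1:**
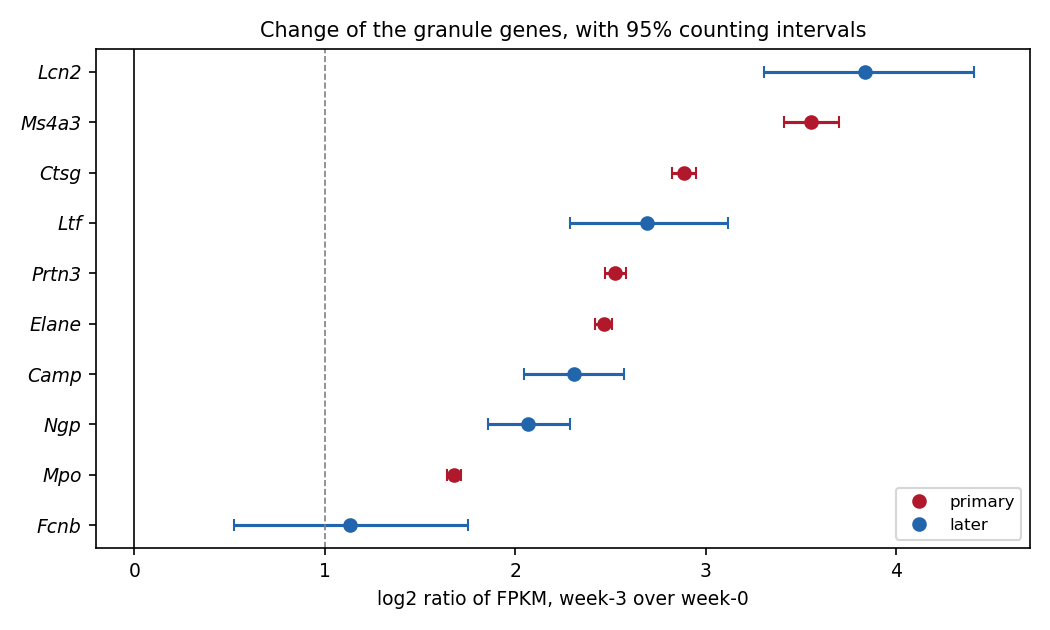
Log2 ratio of FPKM, week-3 over week-0, for the 10 granule genes (points), ordered by size, with 95% exact counting intervals (bars). The solid line is no change and the dashed line is 2-fold. The primary genes (red) and later genes (blue) are intermixed, from Fcnb at 1.13 to Lcn2 at 3.83.

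Among the primary granule genes, Mpo (ENSMUSG00000009350, chromosome 11 of GRCm38, 87793581 to 87804413, plus strand) encodes myeloperoxidase, which makes hypochlorous acid in the phagosome. Mpo was read 9443 times in the week-0 library, for an FPKM of 309, and 18486 times in the week-3 library, for an FPKM of 988. The log2 ratio of 1.68 (interval 1.64 to 1.71) was the smallest of the primary genes. It was the member with the most reads in both libraries.

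The serine proteases had larger ratios than Mpo, with intervals that did not overlap its interval. Elane (ENSMUSG00000020125, chromosome 10, 79886312 to 79888216, plus strand) encodes neutrophil elastase and went from 5454 reads and an FPKM of 933 to 18391 reads and an FPKM of 5143. Its log2 ratio was 2.46 (interval 2.42 to 2.51). Prtn3 (ENSMUSG00000057729, chromosome 10, 79874476 to 79883174, plus strand) encodes proteinase 3. It had 3552 and 12505 reads, with an FPKM of 189 and 1087. Its log2 ratio of 2.53 (interval 2.47 to 2.58) overlapped that of its neighbour Elane. Ctsg (ENSMUSG00000040314, chromosome 14, 56099881 to 56102574, minus strand) encodes cathepsin G, with 2423 and 10942 reads and an FPKM of 380 and 2810. Its log2 ratio of 2.88 (interval 2.82 to 2.95) was above those of Elane and Prtn3, with intervals that did not overlap. Ctsg lies in a cluster of mast cell and cytotoxic protease genes, and mast cells can also express it. The part of mast cell RNA in its change was not tested, and the mast cell genes are given below.

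Ms4a3 (ENSMUSG00000024681, chromosome 19, 11629496 to 11640851, minus strand) encodes a membrane protein of granulocyte-monocyte progenitors rather than a granule content. Its 447 reads at week-0 gave an FPKM of 25.9, and its 3211 reads at week-3 gave 304. The log2 ratio of 3.55 (interval 3.41 to 3.70) was the largest of the primary genes, an 11.7-fold difference.

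Of the later granule genes, Lcn2 (ENSMUSG00000026822, chromosome 2, 32384633 to 32388252, minus strand) had the largest log2 ratio of all members, 3.83 (interval 3.30 to 4.41). It encodes lipocalin 2, which binds bacterial siderophores, and had 32 and 279 reads, with an FPKM of 1.03 and 14.7. Its interval overlapped that of Ms4a3. Ltf (ENSMUSG00000032496, chromosome 9, 111019271 to 111042767, plus strand) encodes the iron-binding protein lactoferrin and had 63 and 249 reads, with an FPKM of 1.78 and 11.5 and a log2 ratio of 2.69 (interval 2.29 to 3.11).

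Camp (ENSMUSG00000038357, chromosome 9, 109847379 to 109849617, minus strand) and Ngp (ENSMUSG00000032484, chromosome 9, 110419747 to 110423012, plus strand) encode a cathelicidin antimicrobial peptide precursor and the related neutrophilic granule protein. Camp had 162 and 490 reads and an FPKM of 33.6 and 166, a log2 ratio of 2.31 (interval 2.05 to 2.57). Ngp had 248 and 636 reads and an FPKM of 31.9 and 134, a log2 ratio of 2.07 (interval 1.85 to 2.29). Their intervals overlapped, and they were the later genes with the most reads at both times.

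Fcnb (ENSMUSG00000026835, chromosome 2, 28076378 to 28084885, minus strand) encodes ficolin B, a lectin that recognises microbial sugars. The read counts were 41 and 55, for an FPKM of 4.24 and 9.30. Its log2 ratio of 1.13 was the smallest of all 10 members, and its interval (0.52 to 1.75) reached below 2-fold and overlapped that of Mpo. In the order of the 10 ratios, the intervals of neighbours failed to overlap only between Mpo and Ngp and between Ctsg and Ms4a3.

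Primary and later granule genes overlapped in the size of their change. The median log2 ratio was 2.53 for the 5 primary genes and 2.31 for the 5 later genes, a difference of -0.22 (later minus primary). Each set ran from a small change (Mpo at 1.68, Fcnb at 1.13) to a large one (Ms4a3 at 3.55, Lcn2 at 3.83). Without Fcnb the difference of the medians was -0.03, without Ms4a3 it was -0.19, and without Mpo it was -0.40. The reads of the primary genes together were 0.335% of the week-0 library (interval 0.331 to 0.340) and 1.63% of the week-3 library (interval 1.62 to 1.65), a ratio of 4.87 (interval 4.799 to 4.950). The reads of the later genes together were 0.00859% (interval 0.00788 to 0.00934) and 0.0440% (interval 0.0419 to 0.0461), a ratio of 5.12 (interval 4.65 to 5.65). These intervals overlapped. Of the members' reads, primary genes held 97.5% in the first library and 97.4% in the second. In summed FPKM the order of the sets was the opposite, with a ratio of 5.63 for primary and 4.62 for later genes.

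The sets differed in level. Levels of different genes were compared as RPM per kilobase of merged exons in GENCODE M21. For many genes the deposited FPKM count overlapping exons of different transcripts more than once. Elane and Ctsg differ, since the lengths behind their FPKM were 920 and 1002 bases, below their merged exons of 984 and 1033. On this scale Elane was the highest member in both libraries, at 872 and 4809. Only 61 genes were above it at week-0 and 6 at week-3. At week-0, Mpo (434), Ctsg (369) and Prtn3 (323) followed. Ms4a3 (37.3), Camp (33.6) and Ngp (31.9) came next, and the intervals of neighbours among these 3 genes overlapped. Fcnb (4.82), Ltf (2.87) and Lcn2 (1.92) were the lowest, and their neighbouring intervals overlapped as well.

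At week-3 the primary genes again took the first 5 places. Ctsg (2725) and Prtn3 (1858) were now above Mpo (1389), which had gone from the second to the fourth place, and Ms4a3 was at 439. Camp (166) and Ngp (134) kept their places. Lcn2 (27.4) and Ltf (18.6) were now above Fcnb (10.6), and no intervals of neighbours overlapped. The summed level of the primary genes was 27.1 times that of the later genes in the first library and 31.45 times in the second. By reads the same ratio was 39.0 and 37.2.

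**Figure D2:**
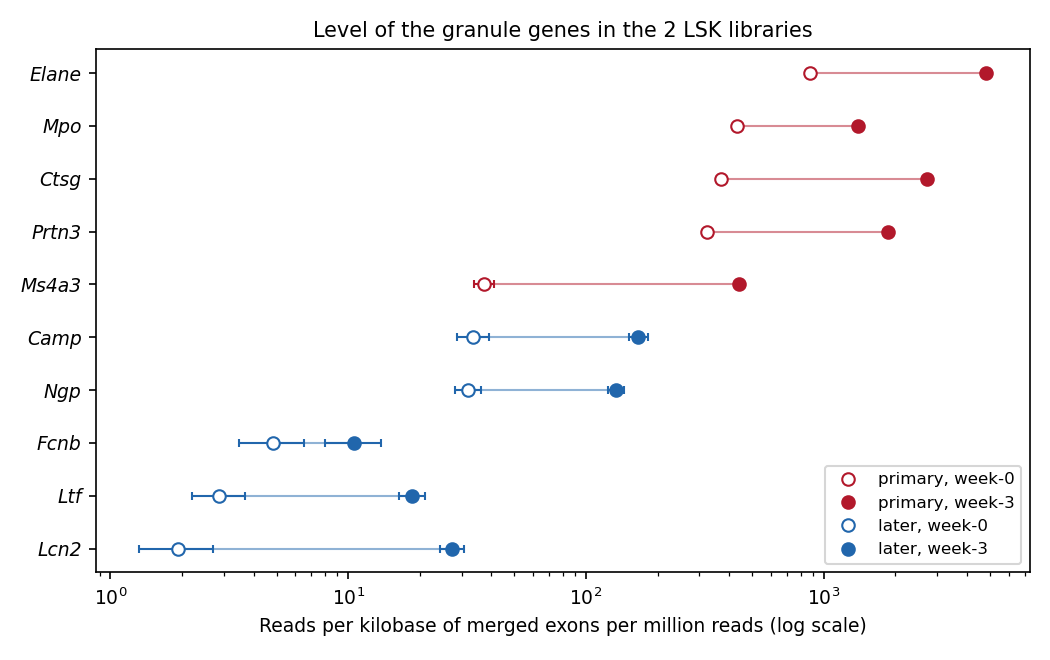
Level of each granule gene, in RPM per kilobase of merged exons on a log axis, at week-0 (open circles) and week-3 (filled circles), with 95% exact Poisson intervals. Primary genes (red) occupy the top 5 rows and later genes (blue) the lower 5, from Elane at 872 and 4809 to Lcn2 at 1.92 and 27.4.

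Members held high places among all genes with at least 10 reads when these were ordered by ratio. Only 61 of the 13689 genes had a larger ratio than Lcn2, 85 than Ms4a3, 157 than Ctsg, 212 than Ltf, 234 than Prtn3 and 251 than Elane. There were 287 genes above Camp, 385 above Ngp, 620 above Mpo and 1314 above Fcnb. The edgeR exact test with an assumed biological coefficient of variation compares 2 libraries on the counts the members were chosen with, and is no test of the conditions. Its call count follows the assumed value, with 10 members and 9.35% of all genes called higher at 0.1, and 2 members and 0.38% at 0.4. Nothing is read from these counts.

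**Figure D3:**
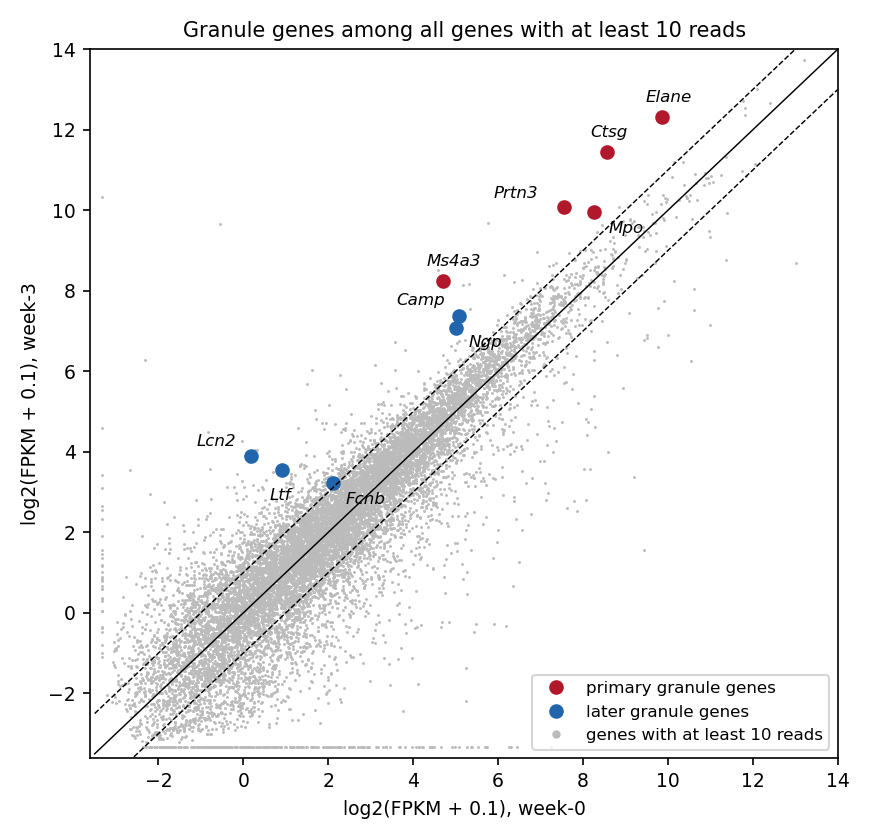
Log2(FPKM + 0.1) at week-0 (horizontal) and week-3 (vertical) for the 13689 genes with at least 10 reads (grey), the primary granule genes (red) and the later granule genes (blue). The solid line is equality and the dashed lines are 2-fold. All 10 members lie above the upper dashed line, Fcnb closest to it, and the primary genes lie toward the high end of expression.

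Among 10 other primary granule genes with at least 10 reads, 1 was at least 2-fold higher, a share near the 11.9% of all genes, and none was at least 2-fold lower. The median log2 ratio was 0.39, and Bpi had no reads in either library. The exception was Prss57, the fourth neutrophil serine protease, on chromosome 10 from 79781474 to 79790961. It went from 365 to 1247 reads, a log2 ratio of 2.48 (interval 2.31 to 2.65), which overlapped those of Elane and Prtn3. The lysosomal enzymes that primary granules share with other lysosomes were between -0.86 (Arsb) and 0.62 (Hexa). Ctsd, with 2040 and 1596 reads, was at 0.36, and Gusb was at 0.41. The granule membrane protein Cd63 was at 0.32 and Nkg7 at 0.60.

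Among 9 genes with reads that package granule proteins or control their proteases, 4 were at least 2-fold higher and none 2-fold lower. The shares of all genes with at least 10 reads were 11.9% and 17.9%. Ctsc, the dipeptidyl peptidase that activates the serine proteases, went from 322 to 459 reads, a log2 ratio of 1.22 (interval 1.01 to 1.43). Slpi, an inhibitor of elastase, was at 1.72 and the cysteine protease inhibitor Cst7 at 1.71. Rab27a, which tethers granules for release, was at 1.37. Serpinb1a, a further inhibitor of elastase, was just under 2-fold at 0.99. Srgn, the proteoglycan core that retains proteases in granules, had 10257 and 6737 reads and a log2 ratio of 0.10. With TMM scaling, these values are lower by 0.11, and Ctsc was at least 2-fold higher there too.

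Of 19 other later granule and neutrophil genes with at least 10 reads, 11 were at least 2-fold higher and 1 was 2-fold lower. Their median log2 ratio was 2.56. Of all genes with at least 10 reads, 11.9% were at least 2-fold higher and 17.9% at least 2-fold lower. Chil3, a chitinase-like protein, had the largest ratio, with 39 and 528 reads and a log2 ratio of 4.47 (interval 3.998 to 4.98). Hp, haptoglobin, went from 204 to 1904 reads (3.93). Mmp8, neutrophil collagenase, had 7 and 50 reads (3.55), and Cybb, the catalytic subunit of the phagocyte oxidase, 35 and 233 reads (3.44). Retnlg was at 2.73, Mmp9 at 2.67, Cd177 at 2.56 and Pglyrp1 at 1.89.

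The chemokine receptor Cxcr2 of mature neutrophils had 49 and 53 reads (log2 ratio 0.82, interval 0.23 to 1.41). Anxa1 was at 0.88, the integrin Itgam at 0.71 and the oxidase subunit Cyba at 0.25. Adam8 (-0.47) and Slc11a1 (-0.49) were below their week-0 level by less than 2-fold, and Mmp25 rested on 10 and 3 reads (-1.03). The other 6 genes of the list had fewer than 10 reads in all, among them Olfm4 with 0 and 3 and Fpr1 with 0 and 7.

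Of 12 transcription factors and cytokine receptors that act in granulocyte development, 4 were at least 2-fold higher, 1 was at least 2-fold lower and 7 lay between. Of all genes with at least 10 reads, 11.9% were at least 2-fold higher and 17.9% at least 2-fold lower. Cebpe, the factor required for later granules, had 88 and 138 reads and a log2 ratio of 1.36 (interval 0.96 to 1.76). Gfi1 was at 2.20 (interval 1.65 to 2.78), Cebpa at 1.25 (interval 0.885 to 1.63) and Myb at 1.08 (interval 0.94 to 1.23). Of the genes counted as higher, only Gfi1 had its whole interval above 2-fold. Cebpb, the factor of emergency granulopoiesis, went from 188 to 36 reads (-1.68). Spi1, which encodes PU.1, was at 0.04 with 2766 and 1740 reads, and the G-CSF receptor gene Csf3r at -0.44 with 644 and 290 reads. Runx1 had 1240 and 524 reads (-0.53, interval -0.68 to -0.38), and Cbfb was at 0.09. Irf8 was at 0.83, Csf2ra at 0.41 and Cebpd at 0.39. Myb was under 2-fold with TMM scaling.

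Markers of other cells moved in the same libraries, and their part in the granule gene values was not tested. Of all genes with at least 10 reads, 11.9% were at least 2-fold higher and 17.9% at least 2-fold lower. Of 10 mast cell and basophil genes, 9 were at least 2-fold higher and 1 was at least 2-fold lower, and their sum went from 389 to 4233 RPM. The mast cell tryptase gene Tpsb2 had 0 and 5442 reads. With its week-0 count set to the floor of 3 reads it was 2967-fold higher, a log2 ratio of 11.53. The interval of that ratio began at 11.24 and had no upper end. Tpsb2 has a close paralog, Tpsab1, so reads may be split between them. Cpa3 had 524 and 4840 reads (3.92). The basophil protease Prss34 was lower (-1.06). Among 9 monocyte and dendritic cell genes, 3 were at least 2-fold higher, namely Ly6c2 (2.20), F13a1 (2.32) and Ccr2 (3.54). Another 5 lay between, with Cd14 at -0.79 (278 and 98 reads) and Csf1r, Ly86, Itgax and Cx3cr1 from 0.25 to 0.92. The plasmacytoid gene Siglech was at -2.10 with 21 and 3 reads (interval -4.49 to -0.35). With at least 50 reads, no gene of this list was 2-fold lower. The list's sum was 281 and 1061 RPM, and Ly6c2 held 1118 of its 1788 reads at week-0 and 3148 of 4122 at week-3.

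Eosinophil genes differed among themselves. Epx, which encodes eosinophil peroxidase, a close relative of myeloperoxidase, had 113 and 31 reads (-1.16). Prg2, the major basic protein gene, had 1552 and 505 reads (-0.91), and Prg3 was at -2.26. In the other direction, the ribonuclease gene Ear2 was at 1.71 with 9 and 18 reads and the surface lectin gene Siglecf at 1.67 with 21 and 41 reads, while Ear1 was at 0.07. Of the 8 genes, 4 were at least 2-fold lower and 2 at least 2-fold higher, with a sum of 292 and 162 RPM. Of 10 stem and LSK genes, 4 were at least 2-fold lower, including Flt3 (-2.02) and Procr (-1.35), and 5 lay between. Slamf1 alone of that list was at least 2-fold higher (10 and 15 reads). Of 10 erythroid and megakaryocyte genes 6 were at least 2-fold lower, and of 7 lymphoid genes 4 were. Of all genes with at least 10 reads, 17.9% were at least 2-fold lower and 11.9% at least 2-fold higher. Among genes with at least 50 reads, the lower counts were 2 for eosinophil and 2 for lymphoid genes. They stayed at 4 for stem and 6 for erythroid and megakaryocyte genes.

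**Figure D4:**
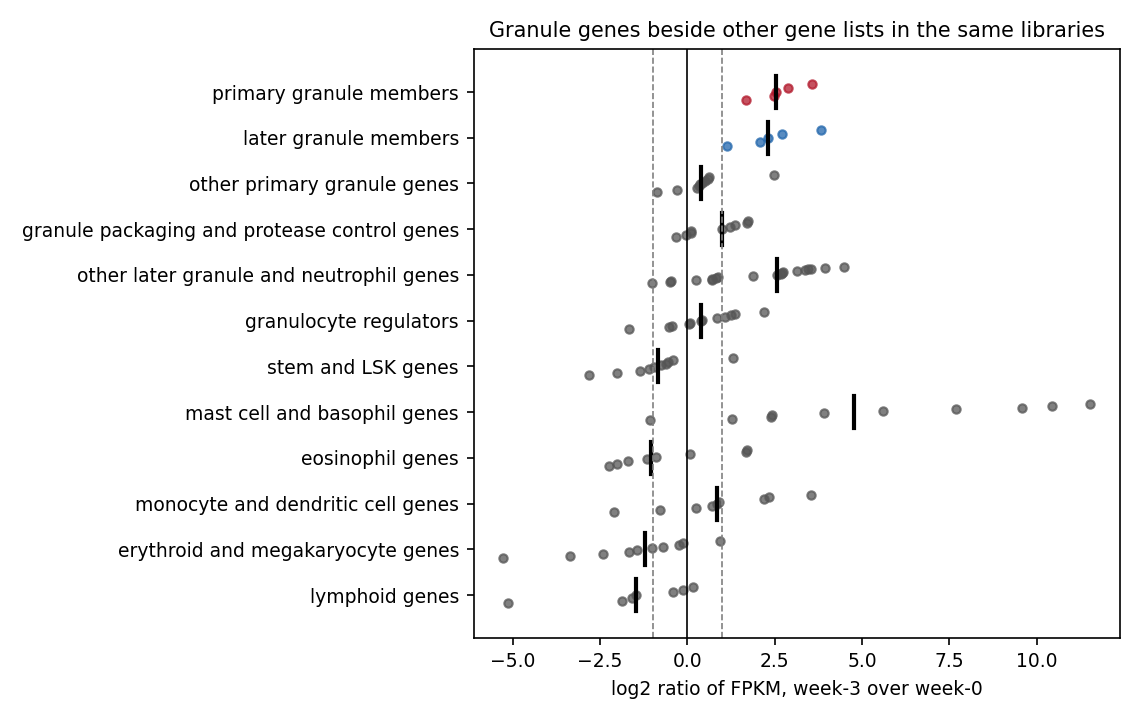
Log2 ratio of FPKM, week-3 over week-0, of each gene with at least 10 reads (points) in the primary members (red), the later members (blue) and 10 other lists (grey), with the list median as a bar. Dashed lines are 2-fold in either direction. The members and the other later granule genes lie mostly to the right of 2-fold, and the other primary granule genes lie within it apart from Prss57. The mast cell and basophil list has the highest median, at 4.76. The stem, eosinophil, erythroid and lymphoid lists have medians below 0. Tpsb2, at the far right, is placed with its week-0 count of 0 set to the floor of 3 reads.

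Annotated genes within 50 kb of a member were higher at some loci and lower at others, by log2 ratio of FPKM. The Elane and Prtn3 loci lie 3138 bases apart on chromosome 10. Med16, downstream of Elane, was at -0.38, and upstream Plppr3 was at 0.20 and Ptbp1 at -1.17. Plppr3 lies on the opposite strand and overlaps the 5′ end of the deposited Prtn3 locus, and 6.45% of the 50-base windows of Prtn3 transcripts also occur in Plppr3. Next to Mpo, its relative Lpo was at -0.29 with 10 and 5 reads, and Tspoap1 was at 0.50. Mpo shares 9.46% of its windows with transcripts of other genes, while the other 8 members shared none. Beside Ctsg, the basophil protease gene Mcpt8 was at 1.29, and the mast cell protease gene Mcpt4 had 0 and 93 reads. Near Ms4a3, Ms4a2, the beta chain of the IgE receptor, was at 2.39 with 10 and 32 reads, and Ms4a6d at 3.83 with 3 and 26 reads. Near Lcn2, 1110008P14Rik was at 1.86 and Slc25a25 at -1.28. Cdc25a near Camp was at 1.28, Ccrl2 near Ltf at -1.55 and Ptpn23 near Ngp at -1.32.

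The genes nearest to the members' median point, by distance over log2(FPKM + 0.1) at both times, were sought among genes with at least 50 reads. The median was taken in each library separately, so no member lies at either point. The primary point joins Mpo at week-0 with Prtn3 at week-3, and the later point joins Fcnb at week-0 with Lcn2 at week-3. Genes near a point therefore need not have ratios near those of the members. For the primary set (median FPKM of 309 and 1087) they were Plac8, Tspo, Rps12, Rpsa and mt-Nd4. The nearest, Plac8, had an FPKM of 347 and 798 and a log2 ratio of 1.20, under that of every primary gene. For the later set (median FPKM of 4.24 and 14.7) they were 1810011H11Rik, Ccnf, Neu1, Baz1a and Lilr4b, with log2 ratios from 1.64 to 2.03. With 2 libraries this likeness rests on 2 values per gene.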

How the data were processed

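BM LSK RNA gave 1 library per time point, from 3 mice each. Per the paper's methods and the submitters' processing notes, the authors prepared cDNA with an ultra low input kit, removed poor reads and aligned the rest to the GRCm38 (mm10) genome with TopHat2 2.0.9. The counting tool and the annotation release are not given in the sources used here. The authors deposited counts (whole reads per gene, not normalized) and FPKM, which the authors scaled by total reads on genes and by exon length. The length behind the deposited FPKM equalled, within 1%, the sum of distinct exons over all transcripts in GENCODE M21 for 68.3% of 9266 genes with at least 50 reads at week-0 and for 8 of the 10 members, and the merged exon length for 8.55% of genes. This length cancels in a ratio of one gene.

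The members, gene lists and motifs were chosen with earlier results of these data known. No test of the conditions is possible with 1 library each. A gene was counted as higher or lower at a ratio of 2 or 0.5, among genes with at least 10 reads over both libraries, and a library at 0 was set to the floor of 3 reads. The named genes are the members, list genes, neighbours within 50 kb and the 5 genes nearest to each set. Itgam has 2 entries, and the one with more reads was used.

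edgeR 4.0.16 (exact test with an assumed dispersion, and TMM) and DESeq2 1.42.0 (size factors) in R 4.3.3 served for alternatives only. Ratios and intervals were computed in Python 3.11.15 (scipy 1.17.1, pandas 2.3.3, numpy 2.4.6) and drawn with matplotlib 3.10.9. The exact test and the coverage of the intervals were run on data simulated under the model each assumes. These runs check the code only and cannot show how either behaves with amplified reads or differences between mice.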

Additional observations from a re-analysis of the deposited data

How the results depend on the processing

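With 1 library per time point, no result has a replicate check, and no fit without a library exists. No paired analysis was possible because each group holds 1 library. The values of single genes with few reads, such as Fcnb, Lcn2 and Ltf at week-0, are known only within wide intervals.

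The median log2 ratio of the 10 members was 2.38 with TMM scaling, 2.41 with median-of-ratios scaling and 2.37 with a pseudocount of 1. All 10 members were at least 2-fold higher with either scaling and with a pseudocount of 0.1, and 9 were with a pseudocount of 1. The edgeR exact test with an assumed biological coefficient of variation of 0.4 called 2 members, against 10 at 0.1, a count that follows the assumed value. The difference of the set medians stayed below 0 under every alternative run, between -0.40 and -0.03. The log2 of the later sum's ratio over the primary sum's ratio was -0.28 in FPKM, -0.22 with merged exon length and 0.071 in reads, where the direction reversed on a scale that is not divided by gene length, and the cause was not tested further. Alternatives with merged exon length, with summed reads and without Mpo, and the lists under median-of-ratios scaling, were chosen after seeing the data.

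Among all 13689 genes with at least 10 reads, 1633 (11.9%) were at least 2-fold higher and 2455 (17.9%) at least 2-fold lower. With at least 50 reads over both libraries these were 917 and 1317, out of fewer genes. With a read in both libraries as the only filter they were 2191 and 2495, with TMM 1365 and 2696, and with median-of-ratios 1404 and 2653. Of the list genes, pooled over the 10 lists, 35 were at least 2-fold higher and 22 at least 2-fold lower. Under the alternatives these counts were between 31 and 34 and between 16 and 24. The pooled counts only follow the settings, since the lists moved in different directions. The count and size of each list are given above.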
